A study of Mus musculus with 18 samples.

Results

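MYC works as a heterodimer with MAX. The 10 genes described here are part of the network around this pair in the mouse, together with a noncoding neighbour of Myc. They are Myc, Mycn and Mycl, the 3 MYC family genes; Max, the obligate partner; Mxd1, Mxd4, Mxi1, Mnt and Mga, which encode other proteins that dimerise with MAX; and Pvt1, a long noncoding RNA gene that follows Myc on chromosome 15. They were chosen by gene name from results of these same libraries, with the differences between the genotypes known, so what separates the genotypes in these 10 genes is given as a description, with levels, fitted changes and 1 count of calls from which nothing is read. The 10 are part of 35310 genes listed in 3 deposited tables, of which 25980 are in all 3.

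The study sequenced RNA from 18 libraries in 6 groups of 3. Wild-type cells were set beside cells labelled sgNAT10, that is, cells given a CRISPR guide against Nat10, the enzyme that writes N4-acetylcytidine in RNA. The setting was MCA205 cells in culture, a mouse fibrosarcoma line induced by methylcholanthrene, TC1 cells in culture, which the labels also call a mouse fibrosarcoma line, and day 8 subcutaneous tumours labelled TC1, and no further agent is named for any group. The series title names MYC, with CDK2 and DNMT1, on the way from NAT10 to a type I interferon response, so the question for this network is how its transcripts differ between the genotypes. No label says whether the sgNAT10 cells were a pool or 1 clone, or gives the strain or age of the host mice.

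MYC and MAX bind the DNA word CACGTG, called an E-box, near the starts of genes for ribosome assembly, nucleotide synthesis, glucose use and cell division, and raise their transcription. MXD proteins and MNT compete for MAX on the same sites and bring in SIN3 and histone deacetylases, while MGA pairs with MAX inside a Polycomb-type repressor complex. MYC RNA and protein are both short-lived, so their level follows synthesis and decay closely. PVT1 lies in the same chromosome domain as MYC and is often gained together with it in tumours.

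Some facts of the whole series bear on every value below. Libraries held 51661298 to 78501790 estimated counts, and levels are FPKM, fragments scaled by transcript length and library size, summed over a gene's transcripts. Nat10 RNA did not separate the genotypes, with 13.5 ± 0.866 and 13.5 ± 0.238 FPKM in wild-type and sgNAT10 MCA205 cells, 14.6 ± 1.07 and 12.7 ± 1.29 in TC1 cells and 15.5 ± 0.699 and 14.9 ± 2.25 in tumours (SD, n = 3). A guide need not lower the RNA of its target, so the RNA could not check the genotype labels. Summed liver markers, 5 genes such as Alb, reached 504 to 925 FPKM in TC1 cells, 0 to 59.2 in MCA205 cells, 0 to 149 in wild-type tumours and 342 to 377 in sgNAT10 tumours, and their part in the results was not tested. Epithelial markers were also unequal between libraries, with a sum over 5 genes of 27.8 to 122 FPKM in TC1 cells and of 0.495 to 73.3 in MCA205 cells.

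The tumour libraries went against their label in genes that separated the cell lines. A search made after the data were seen took genes of at least 5 FPKM in every library of 1 cell line and at least 5-fold above every library of the other, which gave 100 TC1 genes and 32 MCA205 genes. Of the 100 TC1 genes, 0 reached the lowest TC1 level in every tumour, and in 40 every tumour was at least 5-fold below it. The TC1 list held liver markers, such as Alb, Ttr and Fgb, and defensin genes known from intestine, such as Defa2. Liver signal was unequal between libraries, as given above, so the counts for the TC1 list are not read as line identity alone. The part of such genes in these counts was not tested. Of the 32 MCA205 genes, 7 reached the lowest MCA205 level in every tumour and only 2 were at least 5-fold below it in every tumour. The MCA205 list held H2-K1, at 428 to 1060 FPKM in MCA205 cells and 1710 to 2740 in tumours. Bulk tumours also hold host cells, and their part in the counts for the MCA205 list was not tested. The meiotic cohesin gene Stag3 was at 35.6 to 71.9 FPKM in TC1 cells and at most 0.197 in tumours, whereas the homeobox gene Hoxc10 was at 21.3 to 25.1 FPKM in MCA205 cells, at most 1.92 in TC1 cells and 16.3 to 25.7 in tumours. They are therefore called the libraries labelled TC1 tumours, and no value below is taken to show what happened to TC1 cells in a mouse.

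The 10 genes were expressed at very different levels, shown by library in the plot of members. In wild-type TC1 cells, the order by mean FPKM ran from Myc at 229 ± 17.7 through Mxi1 at 53.5 ± 2.55, Max at 33.4 ± 2.33, Mga at 18.6 ± 2.2, Pvt1 at 15.4 ± 1.43, Mnt at 9.57 ± 0.401, Mxd4 at 8.67 ± 1.24, Mycn at 3.59 ± 2.21, Mycl at 3.17 ± 0.28 and Mxd1 at 2.67 ± 0.896 (SD, n = 3). Mga and Pvt1 overlapped there, as did Mnt and Mxd4, and Mycn, Mycl and Mxd1. Myc made up 97.2% ± 0.839 of the summed FPKM of the 3 family genes in wild-type TC1 cells, and at least 91.5% in every library of the series.

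**Figure D1:**
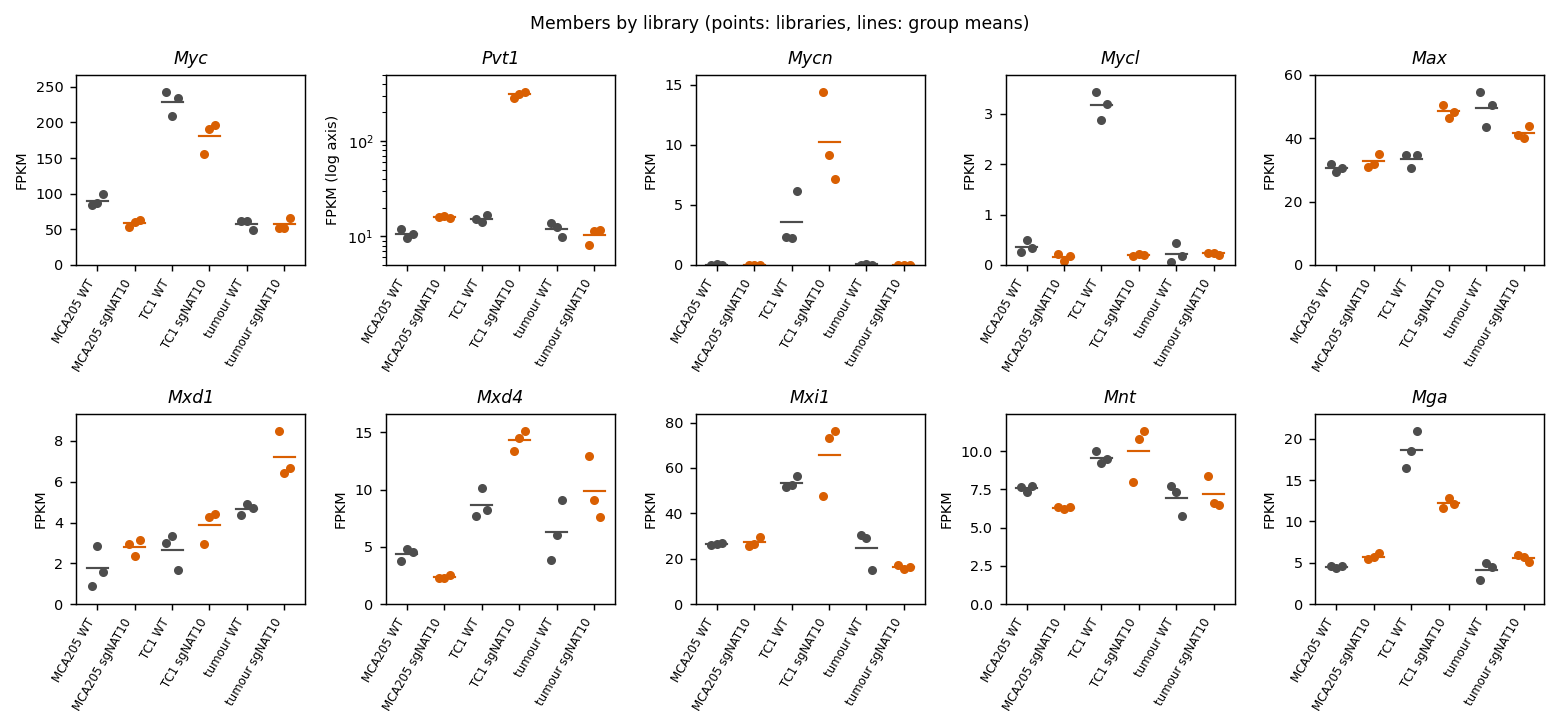
FPKM of each of the 10 genes (vertical axis, a log axis for Pvt1) in the 6 groups (horizontal axis), with 1 point per library, a line at the group mean, grey for wild type and orange for sgNAT10. Pvt1 in sgNAT10 TC1 cells stands apart from every other group, and Mycn and Mga are high in TC1 cells and low in both the MCA205 cells and the tumours.

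Myc itself lies on chromosome 15 from 61985391 to 61990374 on the plus strand of mm10, a gene of 4.98 kb. The Myc level in wild-type MCA205 cells was 84.0, 87.4 and 100 FPKM in the 3 libraries, against 52.8, 60.6 and 63.6 in sgNAT10 cells. In TC1 cells it was 243, 209 and 235 FPKM in wild type and 156, 191 and 197 in sgNAT10. In the libraries labelled TC1 tumours it was 61.2, 61.5 and 48.6 FPKM in wild type and 52.2, 52.3 and 66.2 in sgNAT10. In both cell lines every sgNAT10 library was below every wild-type library, and in the tumours the groups overlapped. The fitted log2 change, sgNAT10 minus wild type, was -0.61 ± 0.09 (SE) in MCA205 cells, -0.43 ± 0.09 in TC1 cells and -0.17 ± 0.18 in tumours. In the 6 fits that left out 1 library the TC1 change ranged from -0.44 to -0.25.

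Over the 6 groups, Myc was highest in wild-type TC1 cells, then in sgNAT10 TC1 cells, wild-type MCA205 cells and sgNAT10 MCA205 cells, without overlap between neighbours in that order. The sgNAT10 MCA205 cells and both tumour groups overlapped each other. Myc is annotated with 7 transcripts, 4 of which hold no exon base of their own, so how reads were shared among them rests on the authors' estimate. The most abundant in cells, ENSMUST00000167731, was at 45.5 ± 3.05 and 25.4 ± 4.74 FPKM in wild-type and sgNAT10 MCA205 cells, and at 113 ± 28.5 and 85.9 ± 8.33 FPKM in TC1 cells. Of the 7, every sgNAT10 library was below every wild-type library for 2 and above for 1 in MCA205 cells, and below for 1 and above for 0 in TC1 cells. The share of all transcripts whose groups stood apart is not given, so nothing is read from these counts. The short form ENSMUST00000159338, which starts inside the gene at 61987034 and has 270 bases of its own, was at 1.47 ± 0.259 against 2.07 ± 0.219 FPKM in MCA205 cells, opposite in direction to the gene as a whole.

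Pvt1 lies on the same strand from 62037986 to 62378096, starting 47.6 kb after the end of Myc. Its level in wild-type TC1 cells was 15.1, 14.1 and 16.9 FPKM, and in sgNAT10 TC1 cells it was 286, 316 and 325 FPKM. In MCA205 cells it was 12, 9.51 and 10.5 FPKM in wild type and 16.1, 16.4 and 15.4 in sgNAT10. In the libraries labelled TC1 tumours it was 13.8, 12.4 and 9.85 FPKM in wild type and 8.01, 11.5 and 11.6 in sgNAT10. Every sgNAT10 library was thus above every wild-type library in both cell lines, by a ratio of means of 20.1 in TC1 cells and 1.49 in MCA205 cells, while the tumour groups overlapped. The fitted log2 changes were 4.17 ± 0.11 in TC1 cells, 0.51 ± 0.09 in MCA205 cells and -0.44 ± 0.27 in tumours. With 1 library left out in turn, it ranged from 4.15 to 4.37 in TC1 cells and from 0.44 to 0.60 in MCA205 cells.

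Since Myc was lower and Pvt1 higher in sgNAT10 TC1 cells, their ratio differed more than either level. Myc over Pvt1 FPKM was 14.9 ± 1.11 in wild-type TC1 cells and 0.585 ± 0.0341 in sgNAT10 TC1 cells. In MCA205 cells it was 8.59 ± 1.41 and 3.71 ± 0.42, and in tumours 4.77 ± 0.289 and 5.59 ± 0.99. Outside sgNAT10 TC1 cells, Pvt1 groups were close together, with sgNAT10 MCA205 cells overlapping wild-type TC1 cells and wild-type tumours overlapping wild-type MCA205 cells.

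Pvt1 has 10 annotated transcripts, with several annotated first exons. The sequences below are the joins of the first and second exon in mm10, with the second exon in capitals, and they are shown because 2 of the 3 begin at different places and enter the same second exon, at 62107148.
ENSMUST00000180432, first exon 62038047 to 62038201: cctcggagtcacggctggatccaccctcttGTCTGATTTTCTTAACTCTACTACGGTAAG
ENSMUST00000183297, first exon 62039257 to 62039447: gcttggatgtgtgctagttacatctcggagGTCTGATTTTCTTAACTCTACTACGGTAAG
ENSMUST00000182476, first exon 62178175 to 62178272: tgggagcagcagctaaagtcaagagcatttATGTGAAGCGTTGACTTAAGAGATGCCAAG
The third begins inside the gene, far from the other starts, and enters another exon, at 62242174.

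The transcript from the first start, ENSMUST00000180432, was at 2.75, 4.18 and 5.49 FPKM in wild-type TC1 libraries and at 67.9, 68.1 and 69.0 in sgNAT10 TC1 libraries. ENSMUST00000183297 was at 2.65, 2.42 and 2.46 FPKM against 73.3, 92.8 and 90.2, and the internal ENSMUST00000182476 at 0.576, 0 and 0.96 against 20.8, 19.0 and 17.9. All 3 transcripts were thus higher in every sgNAT10 TC1 library. These are estimated levels of whole transcripts, and the first exon of ENSMUST00000180432 lies inside that of ENSMUST00000182956, so they do not measure how often each start was used. The same held for 10 of 10 Pvt1 transcripts, and the 9 with a level above 0 in wild type had ratios of means from 11.1 to 76.4, as the plot of transcripts shows. In MCA205 cells the groups stood apart for 4 of 9 transcripts, 3 higher and 1 lower in sgNAT10, and in tumours for 0 of 9. For these counts too the share of all transcripts is not given, and nothing is read from them. ENSMUST00000181657 was the transcript that was lower, at 1.26 ± 0.611 FPKM in wild-type and 0.0052 ± 0.00558 in sgNAT10 MCA205 cells, and since it has 0 exon bases of its own, this value rests on the estimate alone.

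**Figure D2:**
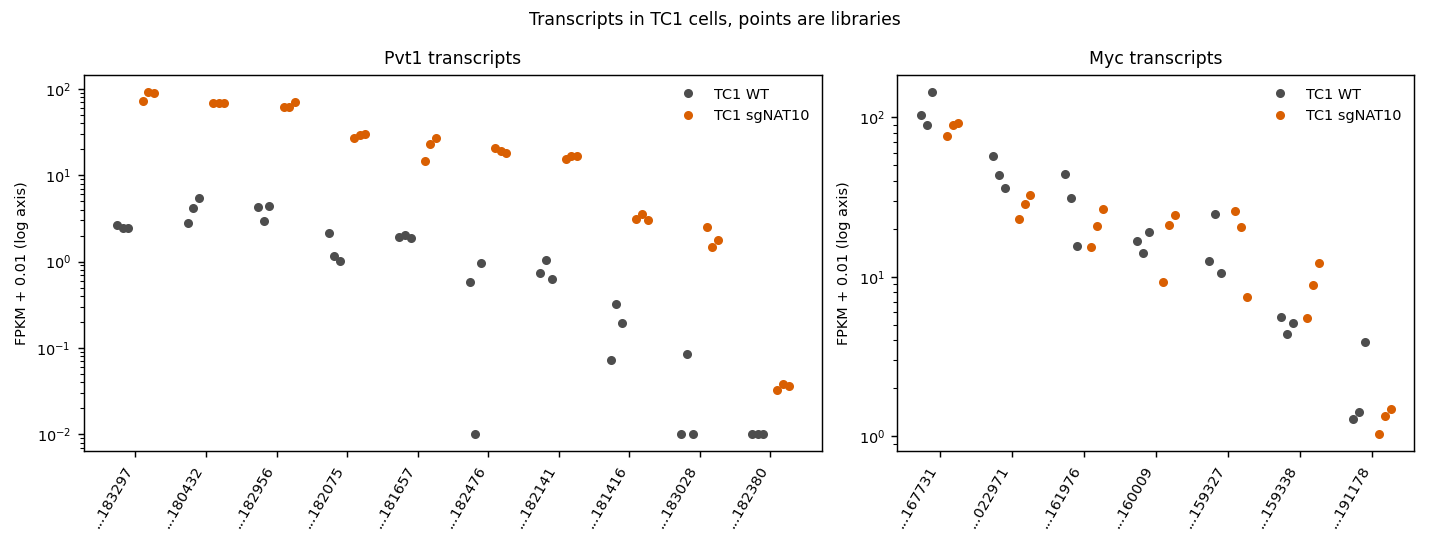
FPKM + 0.01 on a log axis for the 10 Pvt1 and 7 Myc transcripts in TC1 cells, 1 point per library, wild type in grey and sgNAT10 in orange, each transcript named by the last digits of its identifier. The sgNAT10 points lie above the wild-type points for every Pvt1 transcript, and the points of most Myc transcripts mix.

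Neighbouring genes were read to see how far along chromosome 15 the pattern reached. Within 2 Mb of Myc the tables list 28 genes, and 11 had a mean of at least 1 FPKM in a group, Myc and Pvt1 included. In TC1 cells, Lratd2, a gene of the lecithin-retinol acyltransferase domain family before Myc, fell from 9.45 ± 0.73 to 3.44 ± 0.5 FPKM, a log2 change of -1.50 ± 0.12 (edgeR, adjusted p = 0.000182). The model 9930014A18Rik, inside the span of Lratd2 on the other strand, fell from 2.39 ± 0.51 to 1.02 ± 0.301 FPKM (adjusted p = 0.0114). That call was lost without sgNAT10 TC1 replicate 2 or 3, and its reads may be shared with Lratd2. Between Lratd2 and Myc, the unnamed model Gm49497 rose from 0.0223 ± 0.0385 to 1.76 ± 0.166 FPKM, with a log2 change of 6.04 ± 0.88 (adjusted p = 0.00197).

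Inside the span of Pvt1, the model Macroh2a3 rose from 0.0708 ± 0.0535 to 6.21 ± 0.462 FPKM in TC1 cells, a log2 change of 6.28 ± 0.5 (adjusted p = 0.00018). Its reads may be shared with Pvt1, since it overlaps that gene and no strand setting is given in the sources used here. Farther on, Fam49b, a regulator of RAC1, rose from 36.0 ± 1.19 to 42.1 ± 0.721 FPKM in TC1 cells (log2 change 0.27 ± 0.07, adjusted p = 0.0274), fell from 64.8 ± 1.83 to 51.6 ± 3.8 in MCA205 cells (-0.37 ± 0.04, adjusted p = 0.000402) and fell from 67.9 ± 8.91 to 46.5 ± 3.7 in tumours (-0.56 ± 0.14, adjusted p = 0.0363). The TC1 call was lost without wild-type TC1 replicate 2, and the tumour call was lost without wild-type tumour replicate 2 or any 1 of the sgNAT10 tumours. Gsdmc4, a gasdermin gene, was at 0.86 ± 0.721 and 0.034 ± 0.0352 FPKM in wild-type and sgNAT10 TC1 cells (adjusted p = 0.0275), a call kept in only 1 of 6 fits without 1 library. The model Gm27913, also inside the Pvt1 span, was at 0.257 ± 0.417 and 13.7 ± 11.9 FPKM and was not tested. The pseudogene Tsg101-ps was not called in any comparison. Gsdmc2 was not tested in TC1 cells and was not called in MCA205 cells or tumours. Called changes around Myc in TC1 cells thus went in both directions, where 37.9% of all genes tested were called.

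**Figure D3:**
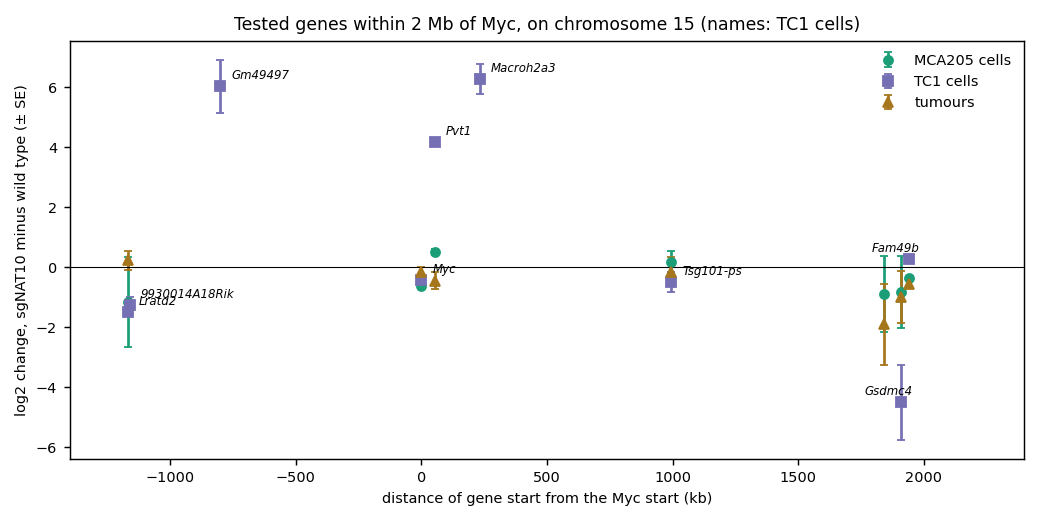
The log2 change, sgNAT10 minus wild type, with its SE (vertical axis) for tested genes of at least 1 FPKM in a group within 2 Mb of Myc, by distance of the gene's start from the Myc start in kb (horizontal axis), in MCA205 cells, TC1 cells and tumours. In TC1 cells Pvt1, Macroh2a3 and Gm49497 lie above 4, while Myc lies slightly below 0.

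The genes whose pattern over the 6 groups was most like that of Pvt1 were found by the root mean square difference between centred group means of log2(FPKM + 1), among 11846 genes. They were Abcb1a at 0.199, Crot at 0.294, Slc25a40 at 0.349, Fndc3c1 at 0.371 and Sri at 0.396 on that log2 scale. Apart from Fndc3c1, on chromosome X, they lie together on chromosome 5, from the start of Sri at 8046078 to the end of Crot at 8997324. In wild-type and sgNAT10 TC1 cells the mean was 33.4 and 635 FPKM for the calcium-binding protein gene Sri, 16.3 and 302 for the peroxisomal carnitine octanoyltransferase gene Crot, and 3.45 and 81.9 for the drug efflux pump gene Abcb1a. For Myc the 5 most alike genes were Macrod2 at 0.0632, Elovl4 at 0.0801, Cldn15 at 0.0865, Ighv3-6 at 0.102 and Mgam at 0.117. All 5 had group means of at most 10.6 FPKM, far below Myc, and Cldn15 and Mgam are known from intestine. Intestine markers, 5 genes such as Vil1, were unequal between libraries. Their sum was 134 to 330 FPKM in TC1 cells, 0.162 to 91.6 in MCA205 cells and 0 to 24.5 in tumours, where Alpi had no value. The part of this signal in the likeness was not tested.

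Mycn, the family gene best known from neural tumours, was at 2.36, 2.26 and 6.14 FPKM in wild-type TC1 libraries and at 14.4, 9.17 and 7.11 in sgNAT10 TC1 libraries. The groups did not overlap, but the third library of each lay close, and the fitted log2 change of 1.47 ± 0.47 ranged from 1.22 to 2.21 with 1 library left out. In MCA205 cells Mycn had 3, 12 and 4 estimated counts in wild type and 0 in each of 3 sgNAT10 libraries, too few to be tested. It was at 0.0679 FPKM or less in every tumour library, wild type or sgNAT10.

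Mycl, first described in human small cell lung cancer, was at 3.44, 2.88 and 3.19 FPKM in wild-type TC1 cells and at 0.172, 0.224 and 0.196 in sgNAT10 TC1 cells. The log2 change was -4.01 ± 0.2, and it ranged from -4.04 to -3.81 with 1 library left out. Mycl was thus at a low level wherever it was measured outside wild-type TC1 cells. In MCA205 cells it was at 0.252, 0.499 and 0.34 FPKM in wild type and 0.226, 0.0821 and 0.179 in sgNAT10, groups that stood apart by a narrow gap. This gave a log2 change of -1.33 ± 0.43 that ranged from -1.51 to -0.97 with 1 library left out. In tumours the groups overlapped, from 0.0502 to 0.44 FPKM in wild type and 0.206 to 0.241 in sgNAT10.

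Max, which encodes a partner shared by the other proteins described here, was at 34.8, 30.7 and 34.7 FPKM in wild-type TC1 cells and 50.6, 46.5 and 48.3 in sgNAT10 TC1 cells. These groups stood apart, with a log2 change of 0.60 ± 0.07. In MCA205 cells Max was at 31.8, 29.3 and 30.6 FPKM against 30.9, 32.0 and 35, which overlap, with a log2 change of 0.14 ± 0.04, and in tumours at 54.6, 43.6 and 50.4 against 41.1, 40.0 and 43.9, which also overlap. Myc over Max FPKM was 6.85 ± 0.108 and 3.76 ± 0.577 in wild-type and sgNAT10 TC1 cells, 2.97 ± 0.315 and 1.8 ± 0.0902 in MCA205 cells, and 1.17 ± 0.226 and 1.36 ± 0.129 in tumours. The ratio was lower in every sgNAT10 library than in every wild-type library of either cell line, and the tumour groups overlapped.

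Among the antagonists, Mxd4 differed between the genotypes in opposite directions in the 2 cell lines. It was at 3.74, 4.86 and 4.56 FPKM in wild-type and 2.32, 2.25 and 2.56 in sgNAT10 MCA205 cells, a log2 change of -0.86 ± 0.13. In TC1 cells it was at 7.74, 10.1 and 8.21 FPKM in wild type and 13.4, 14.5 and 15.1 in sgNAT10, a log2 change of 0.68 ± 0.11. Groups stood apart in both lines, and the difference between the lines was not tested. In tumours it was at 3.84, 6.07 and 9.11 FPKM against 12.9, 9.08 and 7.64, groups that overlap. With 1 library left out, the TC1 change of Mxd4 ranged from 0.71 to 0.84, above that with every library.

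Mga also went in opposite directions. It was at 16.5, 18.5 and 20.9 FPKM in wild-type TC1 cells and at 11.6, 12.8 and 12.1 in sgNAT10 TC1 cells, a log2 change of -0.68 ± 0.09. In MCA205 cells it was at 4.61, 4.41 and 4.59 FPKM against 5.44, 5.66 and 6.13, a log2 change of 0.34 ± 0.06, and in tumours at 2.92, 4.93 and 4.51 against 5.9, 5.76 and 5.12, a change of 0.31 ± 0.14. No group overlapped its counterpart in any of the 3 settings. In tumours the gap was narrow, from 4.93 FPKM in wild type to 5.12 in sgNAT10. The tumour change ranged from 0.19 to 0.41 with 1 library left out. The TC1 change then ranged from -0.65 to -0.49, so each such change was smaller than that with every library.

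Mxd1, induced in many cells as they differentiate, was at 4.38, 4.91 and 4.72 FPKM in wild-type and 8.47, 6.4 and 6.68 in sgNAT10 tumours, groups that stood apart, with a log2 change of 0.51 ± 0.14 that ranged from 0.38 to 0.60 with 1 library left out. In MCA205 cells it was at 0.897, 2.84 and 1.59 FPKM against 2.95, 2.37 and 3.13, and in TC1 cells at 3.02, 3.35 and 1.66 against 2.94, 4.25 and 4.4, both overlapping. In bulk tumour RNA, more cells of a type and more RNA per cell cannot be told apart. Macrophage markers, 6 genes with every mean above 1 FPKM, summed to 883 to 1110 FPKM in wild-type and 705 to 826 in sgNAT10 tumours. The largest difference was that of Lyz2, at a mean of 545 and 331 FPKM. C1qa was at 263 and 263, and Cd68 at 80.4 and 78.7. Adgre1 was at 19.4 and 20.3, Csf1r at 27.4 and 32.0 and Itgam at 24.8 and 28.9. Endothelial markers summed to 21.9 to 28.9 and 39.4 to 48.5, skeletal muscle markers to 10.8 to 13.5 and 45.1 to 81.5, and adipocyte markers to 20.4 to 38.6 and 52.9 to 65.5, and their part in the tumour values was not tested.

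Mxi1, like its MXD relatives a partner of MAX, was at 26.2, 26.5 and 27.1 FPKM in wild-type and 25.7, 26.4 and 29.7 in sgNAT10 MCA205 cells, and at 51.5, 52.6 and 56.4 against 47.8, 73.1 and 76.2 in TC1 cells, so the first sgNAT10 TC1 library was the lowest of the 6 and the others the highest. In tumours it was at 30.4, 29.3 and 15.2 FPKM against 17.2, 15.5 and 16.3, where the third wild-type library was below all sgNAT10 libraries, with a log2 change of -0.73 ± 0.29. Mnt, which is thought to restrain MYC in growing cells, was at 7.63, 7.35 and 7.75 FPKM in wild-type and 6.32, 6.22 and 6.36 in sgNAT10 MCA205 cells, groups that stood apart, with a log2 change of -0.26 ± 0.05. In TC1 cells Mnt was at 9.99, 9.2 and 9.51 FPKM against 7.98, 10.8 and 11.3, and in tumours at 7.74, 7.3 and 5.74 against 8.37, 6.63 and 6.5, both overlapping.

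**Figure D4:**
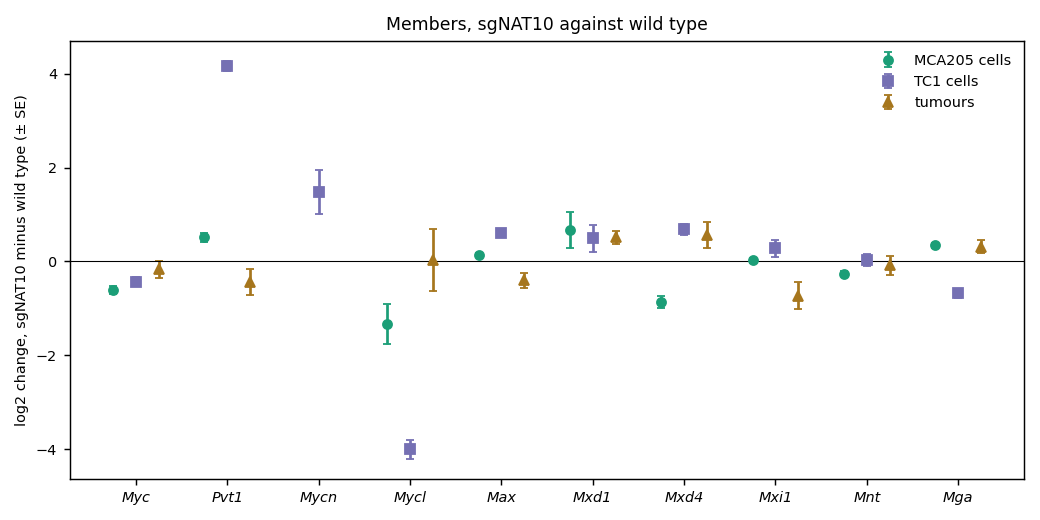
The log2 change, sgNAT10 minus wild type, with its SE (vertical axis) for each of the 10 genes in MCA205 cells, TC1 cells and tumours; Mycn is shown for TC1 cells only, where it could be tested. Pvt1 at 4.17 and Mycl at -4.01 in TC1 cells are the farthest from 0, and Mxd4 and Mga lie on opposite sides of 0 in the 2 cell lines.

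By number, 7 of 9 members tested in MCA205 cells were called at an adjusted p under 0.05, 3 higher and 4 lower, where 40.6% of all 18101 genes tested were called. In TC1 cells 7 of 10 were called, 4 higher and 3 lower, where 37.9% of 18823 genes were called. In tumours 1 of 9 was called, where 17.4% of 19244 genes were. The low filter left out Mycn in MCA205 cells and tumours. With 1 library left out, 5 to 6 members were called in MCA205 cells, 5 to 8 in TC1 cells and 0 to 1 in tumours. Since the members were chosen with these contrasts known, nothing is read from these counts. The median log2 change of the members was 0.02 in MCA205 cells, 0.38 in TC1 cells and -0.08 in tumours, beside -0.03, -0.08 and 0.02 over all genes.

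Summed FPKM of the 3 family genes over summed FPKM of Mxd1, Mxd4, Mxi1 and Mnt gave a balance of 2.26 ± 0.18 in wild-type and 1.53 ± 0.105 in sgNAT10 MCA205 cells, and of 3.17 ± 0.299 and 2.08 ± 0.255 in TC1 cells. In both lines every sgNAT10 library was below every wild-type library. In tumours the values were 1.34 ± 0.0529 and 1.44 ± 0.337 and overlapped. The ratio is of RNA levels and says nothing of protein.

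Between the wild-type lines, levels were compared across 2 tables, so table and line cannot be told apart. Myc was higher in TC1 than in MCA205 cells by a log2 difference of 1.33 ± 0.11 (edgeR, adjusted p = 0.00026), Mga by 2.02 ± 0.1 (adjusted p = 7.24e-05) and Mxi1 by 0.95 ± 0.04 (adjusted p = 6.58e-05). Mycl was higher by 3.18 ± 0.31 (adjusted p = 0.000491) and Mycn by 6.53 ± 0.74 (adjusted p = 0.000903), from a mean of 0.036 FPKM in MCA205 cells. Mxd4 differed by 0.98 ± 0.16 (adjusted p = 0.00383), Mnt by 0.32 ± 0.05 (adjusted p = 0.0038) and Pvt1 by 0.45 ± 0.12 (adjusted p = 0.0255), the Pvt1 call being lost without wild-type MCA205 replicate 2 or 3, without wild-type TC1 replicate 3 and with the replicate number as a block. Max differed by 0.13 ± 0.04 (adjusted p = 0.0495), a call kept in only 1 of 6 fits without 1 library, and Mxd1 was not called. In all, 9 of 10 members were called, each higher in TC1 cells, where 45.1% of 18725 genes were called, 4332 higher and 4116 lower. The members were chosen from results of these libraries, so these p-values are a description and nothing is read from this count.

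The wild-type libraries labelled TC1 tumours were set beside wild-type TC1 cells with the reservation on their identity given above. Myc was lower in the tumours by a log2 difference of -1.79 ± 0.17 (adjusted p = 0.000615), Mga by -1.96 ± 0.15 (adjusted p = 0.000341), Mycl by -3.75 ± 0.68 (adjusted p = 0.00598) and Mycn by -6.27 ± 0.7 (adjusted p = 0.00111). Mxi1 was lower by -0.98 ± 0.3 (adjusted p = 0.0397), Max was higher by 0.81 ± 0.16 (adjusted p = 0.00778) and Mxd1 was higher by 0.93 ± 0.26 (adjusted p = 0.0256). The Mxi1 call was kept in 2 of 6 fits without 1 library and so was that of Mxd1. In all, 7 of 10 were called, 2 higher and 5 lower, where 43.9% of 19035 genes were called. Here too the members were chosen from results of these libraries, so the p-values are a description and nothing is read from the count. With library sizes alone as scaling, the median of all genes moved from 0.04 to -0.14, and 41.2% of all calls were higher in place of 53.9%. For every member other than Max and Mxd1, the wild-type tumour mean in FPKM was nearer to that of wild-type MCA205 cells than to that of wild-type TC1 cells, for example 4.12 ± 1.06 FPKM for Mga beside 4.54 ± 0.109 and 18.6 ± 2.2.

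The RNAs of genes that MYC is known to activate were then read from 4 lists with 88 genes, none a member. These lists and the later ones were chosen with earlier results of these data known. Their counts and p-values are therefore a description, not an independent measure of MYC activity. The E-box CACGTG, which reads the same on both strands, was in the promoter window of 22 of the 78 activated targets in the RefSeq promoter table (GRCm38.p6, 250 bases before to 50 after the start), or 28.2%, beside 8.09% of all 27025 genes in the table. It was in 0 of 7 repressed targets, and in 3 of 8 members with an entry, Max, Mxd4 and Mnt. The windows below put the word in capitals for genes whose values are given above or below, and a match is a description only. The targets shown are a selection, each called lower in a comparison. In TC1 cells 9 targets with the word were called lower and 2 higher. The 2 called higher, Eif4g1 and Ldha, are not shown.
Mxd4, chr5:34187889-34187960, minus strand: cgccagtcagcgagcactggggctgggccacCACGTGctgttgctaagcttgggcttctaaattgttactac
Mnt, chr11:74830766-74830841, plus strand: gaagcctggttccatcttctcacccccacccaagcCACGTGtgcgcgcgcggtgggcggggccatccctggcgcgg
Imp4, chr1:34439673-34439748, plus strand: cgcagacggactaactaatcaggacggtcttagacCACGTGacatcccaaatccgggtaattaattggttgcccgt
Slc16a1, chr3:104638429-104638504, plus strand: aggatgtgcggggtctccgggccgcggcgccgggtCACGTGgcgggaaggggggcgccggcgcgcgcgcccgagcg
Eif4e, chr3:138527169-138527244, plus strand: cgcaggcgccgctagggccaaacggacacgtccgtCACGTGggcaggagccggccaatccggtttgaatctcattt
Xpot, chr10:121626523-121626582, minus strand: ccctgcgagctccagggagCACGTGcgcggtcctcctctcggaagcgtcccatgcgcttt
The word begins at position -121 from the start of Imp4, -200 of Slc16a1, -64 of Eif4e, which holds 2, and -231 of Xpot, and at -219 and -123 in Mxd4 and Mnt.

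In MCA205 cells, activated targets were more often lower than higher in sgNAT10. Of 88 tested, 35 were lower and 13 higher, where 19.4% of all genes were lower and 21.2% higher, and their median log2 change was -0.08 beside -0.03 for all genes. Slc16a1, a lactate transporter gene, fell from 48.3 ± 1.89 to 32.1 ± 0.869 FPKM (log2 change -0.59 ± 0.04, adjusted p = 6.78e-05), and Eif4e, the cap-binding translation factor gene, from 60.4 ± 2.75 to 40.7 ± 0.231 (-0.59 ± 0.05, adjusted p = 9.87e-05). Odc1, the first enzyme of polyamine synthesis and a classical MYC target, rose from 234 ± 13.9 to 449 ± 9.83 FPKM (0.95 ± 0.05, adjusted p = 3e-05), and Slc2a1, a glucose transporter gene, rose from 39.8 ± 0.727 to 50.6 ± 1.11 (0.38 ± 0.03, adjusted p = 0.000174). The metabolic list thus held 11 lower and 5 higher genes of 24. Cell cycle and replication genes numbered 6 lower and 2 higher of 12, among them Id2, an inhibitor of basic helix-loop-helix factors, which fell from 10.6 ± 1.48 to 2.5 ± 0.388 FPKM (-2.06 ± 0.16, adjusted p = 0.000102). Ribosome biogenesis genes were 12 lower and 3 higher of 33, with the nucleolar genes Nolc1 at 94.6 ± 8.4 and 66.8 ± 5.12 FPKM (adjusted p = 0.000178) and Gnl3 at 83.2 ± 4.06 and 59.6 ± 0.769 (adjusted p = 0.000612), and genes of translation, folding and mitochondria 6 lower and 3 higher of 19.

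In TC1 cells, more activated targets were lower than higher. Of 88 activated targets 41 were lower and 10 higher, where 22.0% of all genes were lower and 15.9% higher, with a median log2 change of -0.36 beside -0.08. With RLE size factors 33 were lower and 11 higher, and the calls over all genes were 3389 higher and 3417 lower in place of 2991 and 4135. Of 33 ribosome biogenesis genes 20 fell and 0 rose in edgeR, and 0 were higher either at an unadjusted p under 0.05 or in DESeq2. Nop56, of the box C/D snoRNP core, fell from 354 ± 19.6 to 166 ± 23.9 FPKM (-1.16 ± 0.11, adjusted p = 0.000386), and Wdr74, of large subunit maturation, from 57.9 ± 2.98 to 31.4 ± 4.38 (-0.90 ± 0.12, adjusted p = 0.00119). The amino acid transporter gene Slc7a5 fell from 121 ± 8.7 to 32.4 ± 5.55 FPKM (-1.94 ± 0.14, adjusted p = 0.000112), the mitochondrial serine enzyme gene Shmt2 from 249 ± 7.83 to 96.3 ± 12.5 (-1.37 ± 0.11, adjusted p = 0.000182) and the folate enzyme gene Mthfd2 from 107 ± 6.38 to 33.4 ± 8.29 (-1.72 ± 0.18, adjusted p = 0.000501), and the metabolic list held 8 lower and 4 higher of 24. Mthfd1, another folate enzyme gene of the list, rose by a log2 change of 0.41 ± 0.13 (adjusted p = 0.0442). Xpot, the tRNA exporter gene, fell from 61.3 ± 1.87 to 27.0 ± 4.18 FPKM (-1.22 ± 0.12, adjusted p = 0.000396) in the list for translation, folding and mitochondria, with 10 lower and 2 higher of 19. The 2 that rose were the initiation factor genes Eif4g1 (0.79 ± 0.13, adjusted p = 0.00299) and Eif2s1 (0.34 ± 0.09, adjusted p = 0.0264).

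Cell cycle genes did not follow in TC1 cells, with 3 lower and 4 higher of 12. The D-type cyclin gene Ccnd2 fell from 44.4 ± 1.57 to 14.4 ± 2.08 FPKM (-1.68 ± 0.12, adjusted p = 0.000108), while the replication helicase gene Mcm4 rose from 50.8 ± 3.67 to 95.3 ± 1.24 (0.86 ± 0.07, adjusted p = 0.000217) and the mitotic kinase gene Plk1 from 43.5 ± 1.92 to 64.8 ± 6.81 (0.53 ± 0.1, adjusted p = 0.00467). In MCA205 cells Mcm4 fell from 70.3 ± 4.86 to 52.1 ± 1.71 FPKM (adjusted p = 0.00106) and Plk1 from 85.9 ± 1.22 to 62.8 ± 1.06 (adjusted p = 4.71e-05), and the difference between the lines was not tested. The number of activated targets lower in TC1 cells was 19 without sgNAT10 replicate 2, 22 without sgNAT10 replicate 3 and 23 without wild-type replicate 1, where 12.9%, 13.5% and 13.5% of all genes were then lower.

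**Figure D5:**
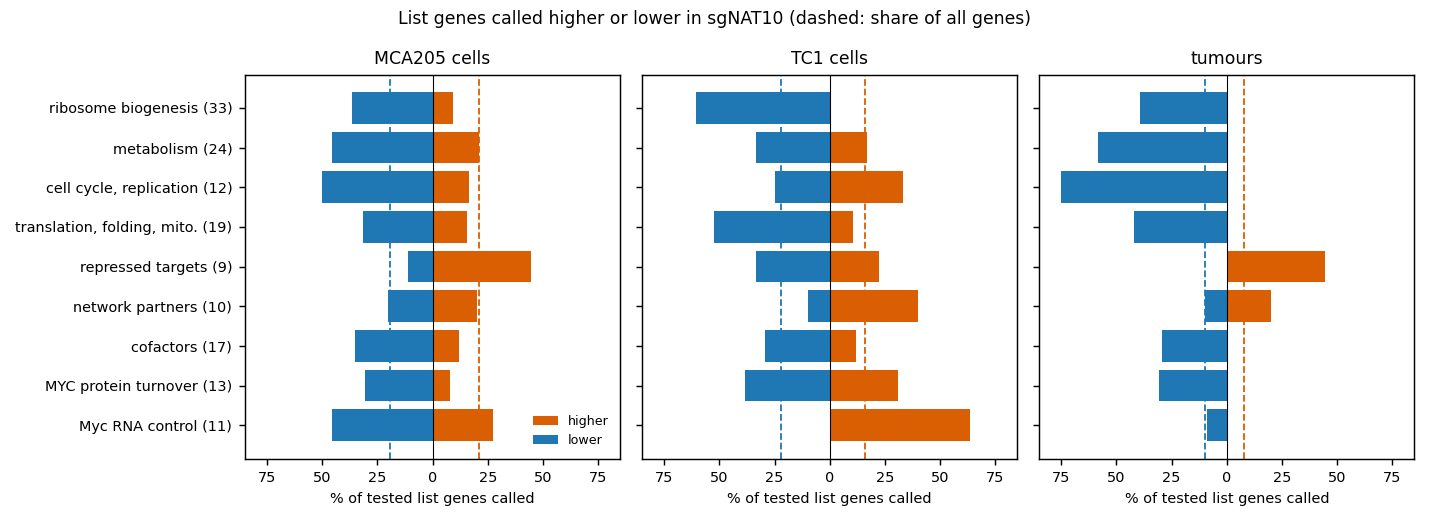
Percent of tested genes of each list called higher (orange, to the right) or lower (blue, to the left) in sgNAT10 in MCA205 cells, TC1 cells and tumours, with the number tested in parentheses and dashed lines at the shares of all genes. Ribosome biogenesis genes in TC1 cells are lower in 20 of 33 with 0 higher, and cell cycle genes in tumours are lower in 9 of 12.

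In the libraries labelled TC1 tumours, activated targets were called in 1 direction. Of 88, 44 were lower and 0 higher, where 9.72% of all genes were lower and 7.65% higher, with a median log2 change of -0.57 beside 0.02. At an unadjusted p under 0.05 edgeR gave 2 higher and 71 lower, and DESeq2 called 2 higher and 62 lower. Cell cycle and replication genes were lower in 9 of 12, with Mcm4 at 48.5 ± 3.97 and 21.4 ± 0.773 FPKM (-1.30 ± 0.11, adjusted p = 0.00226), Plk1 at 44.2 ± 3.44 and 19.2 ± 2.44 (-1.32 ± 0.12, adjusted p = 0.00289) and E2f2, an S-phase transcription factor gene, at 5.86 ± 0.725 and 2.74 ± 0.195 (-1.22 ± 0.12, adjusted p = 0.00342). Of 24 metabolic genes 14 were lower, of 33 ribosome biogenesis genes 13 and of 19 genes of translation, folding and mitochondria 8. Myc itself was at 57.1 ± 7.34 and 56.9 ± 8.02 FPKM in the same libraries.

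The tumour calls leaned on single libraries, over all genes as well as over the targets. Without sgNAT10 tumour replicate 2, 4 of the activated targets were lower, where 1.62% of all genes were. Without sgNAT10 replicate 1, sgNAT10 replicate 3 or wild-type replicate 2 the number was 12, 13 or 19. The shares of all genes lower were then 2.94%, 2.48% and 3.21%, beside 9.72% with every library. Of the 38 genes chosen for naming in tumours, 7 kept their call in each fit without 1 library. With library sizes alone as scaling, the median of all genes in tumours moved from 0.02 to 0.13, and 55.2% of all calls were higher in place of 44.1%. There 34 activated targets were lower and 0 higher, where over all genes 1223 were lower and 1505 higher.

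Lower in all of the 3 comparisons were 6 activated targets, Pes1, Imp4, Tcof1, Wdr43, Tmem97 and Slc7a5, or 6.82% of 88, beside 1.59% of the 16503 genes tested in all 3. The first 4 act in the nucleolus, Pes1 in large subunit maturation, Imp4 and Wdr43 in the small subunit processome and Tcof1 in rRNA gene transcription. Imp4, whose promoter window is shown above, was at 11.2 ± 0.742 and 9.57 ± 0.099 FPKM in wild-type and sgNAT10 MCA205 cells (adjusted p = 0.0496), 14.2 ± 1.41 and 9.06 ± 1.36 in TC1 cells (adjusted p = 0.0065) and 11.1 ± 0.436 and 8.18 ± 0.375 in tumours (adjusted p = 0.0204). Tcof1 was at 51.3 ± 4.86 and 36.4 ± 3.21 FPKM (adjusted p = 0.000353), 37.4 ± 4.58 and 24.9 ± 6.8 (adjusted p = 0.0381), and 33.3 ± 7.48 and 17.0 ± 0.476 (adjusted p = 0.0089) in the same order. In MCA205 cells the Imp4 call was kept in only 1 of 6 fits without 1 library, as was that of Tcof1 in TC1 cells. Of the 88, 0 were higher in all 3 in edgeR, beside 0.727% of all genes tested in all 3.

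In TC1 cells 9 of 22 targets with the E-box and 26 of 56 without it were called lower, with medians of -0.30 and -0.29. In MCA205 cells 11 of 22 with it and 19 of 56 without it were lower, with medians of -0.12 and -0.06, and in tumours 14 of 22 and 25 of 56, with medians of -0.52 and -0.59. These are counts within the lists, and no test was made of them.

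Genes that MYC and its MIZ1 complex are known to repress were 9. For this list and the lists that follow, the shares of all genes called higher and lower were 21.2% and 19.4% in MCA205 cells, 15.9% and 22.0% in TC1 cells, and 7.65% and 9.72% in tumours. Of the 9, 4 were higher (44.4%) and 1 lower (11.1%) in MCA205 cells, and 2 higher (22.2%) and 3 lower (33.3%) in TC1 cells. In tumours 4 were higher (44.4%) and 0 lower, with 1 lower both at an unadjusted p under 0.05 and in DESeq2. In TC1 cells the cyclin-dependent kinase inhibitor gene Cdkn1a rose from 110 ± 9.75 to 368 ± 16.2 FPKM (1.65 ± 0.08, adjusted p = 3.44e-05), while the stress gene Gadd45a fell from 96.4 ± 17 to 9.36 ± 4.08 (-3.43 ± 0.34, adjusted p = 0.000432). Gadd45a rose in MCA205 cells, from 69.1 ± 4.44 to 87.7 ± 2.15 FPKM (adjusted p = 0.00233), and Ndrg1, a differentiation gene, rose there from 67.6 ± 1.58 to 93.2 ± 3.28 (adjusted p = 0.000107). The growth arrest gene Gas1 fell in both lines, to 16.6 ± 0.218 FPKM from 22.6 ± 0.518 in MCA205 cells (adjusted p = 0.000144) and to 18.1 ± 3.15 from 40.4 ± 6.12 in TC1 cells (adjusted p = 0.00132), and rose in tumours from 17.8 ± 5.98 to 41.3 ± 4.69 (adjusted p = 0.0125), a call lost without sgNAT10 tumour replicate 1 or 2.

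Partners, cofactors and regulators of MYC came to 51 genes. In MCA205 cells 8 were higher (15.7%) and 17 lower (33.3%). In TC1 cells 17 were higher (33.3%) and 11 lower (21.6%, near the 22.0% of all genes). In tumours 2 were higher (3.92%) and 11 lower (21.6%). Of the 11 genes that act on Myc RNA or its transcription, 7 were higher in TC1 cells (63.6%, beside 15.9% of all genes) and 0 lower (beside 22.0%) in edgeR, 1 lower at an unadjusted p under 0.05 and 0 lower in DESeq2. The RNA-binding protein gene Igf2bp2 rose from 37.7 ± 5.54 to 67.2 ± 2.48 FPKM (0.79 ± 0.08, adjusted p = 0.000404), Fubp1, which binds an element before Myc, from 45.4 ± 3.03 to 65.0 ± 3.92 (0.56 ± 0.08, adjusted p = 0.00205) and Ctnnb1, encoding beta-catenin, from 93.1 ± 3.98 to 154 ± 8.93 (0.67 ± 0.06, adjusted p = 0.000379). In MCA205 cells the same list held 3 higher and 5 lower, among them Cnbp, which fell from 410 ± 17.3 to 298 ± 13.5 FPKM (-0.47 ± 0.05, adjusted p = 0.000401), and in tumours 0 higher and 1 lower, Igf2bp2, which fell from 15.8 ± 2.17 to 7.59 ± 0.443 (-1.20 ± 0.15, adjusted p = 0.00528).

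Of 13 genes for turnover of MYC protein, 1 was higher (7.69%) and 4 lower (30.8%) in MCA205 cells. In TC1 cells 4 were higher (30.8%) and 5 lower (38.5%), and in tumours 0 higher and 4 lower (30.8%). Usp36, a nucleolar deubiquitinase gene, fell from 19.3 ± 1.11 to 9.52 ± 0.637 FPKM in TC1 cells (-1.07 ± 0.08, adjusted p = 0.00015). The kinase gene Aurka fell from 56.5 ± 6.32 to 25.7 ± 2.39 FPKM in tumours (-1.25 ± 0.13, adjusted p = 0.00385), and Skp2, an E3 ligase subunit gene, from 20.6 ± 2.25 to 17.5 ± 0.458 in MCA205 cells (-0.37 ± 0.05, adjusted p = 0.000773). In TC1 cells both rose, Skp2 by 0.64 ± 0.1 (adjusted p = 0.00328) and Aurka by 0.30 ± 0.08 (adjusted p = 0.0198).

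Of 17 cofactors, 2 were higher (11.8%) and 6 lower (35.3%) in MCA205 cells, 2 (11.8%) and 5 (29.4%) in TC1 cells, and 0 and 5 (29.4%) in tumours. For the turnover, RNA control and cofactor lists in tumours, edgeR gave 0, 0 and 1 higher at an unadjusted p under 0.05, and DESeq2 called 0 higher in each. Wdr5, which holds MYC on chromatin, was the 1 gene of the 51 lower in all 3 (1.96%, beside 1.59% of all genes), with 37.0 ± 1.34 and 27.3 ± 0.839 FPKM in MCA205 cells (adjusted p = 0.000214), a log2 change of -0.28 ± 0.07 in TC1 cells (adjusted p = 0.0213) and 31.2 ± 1.84 and 21.6 ± 0.151 in tumours (adjusted p = 0.01). Its TC1 call was kept in 1 of 6 fits without 1 library, and its tumour call was lost without sgNAT10 replicate 2. Ruvbl1, an ATPase of chromatin complexes, fell from 75.9 ± 1.89 to 44.6 ± 1.05 FPKM in MCA205 cells (-0.76 ± 0.03, adjusted p = 9.39e-06). Of 10 partners of the wider MAX and MLX network, 2 were higher and 2 lower in MCA205 cells, shares near those of all genes there. In TC1 cells 4 were higher and 1 lower, and in tumours 2 were higher and 1 lower. Mxd3, the family member that was not among the 10, fell from 8.03 ± 0.966 to 5.98 ± 0.102 FPKM in MCA205 cells (adjusted p = 0.0205, kept in 2 of 6 fits without 1 library) and rose from 6.78 ± 0.873 to 10.9 ± 1.13 in TC1 cells (0.65 ± 0.15, adjusted p = 0.0121).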

How the data were processed

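The series holds 18 RNA-seq libraries in 6 groups of 3, in 3 tables with a row per transcript. The authors deposited estimated counts, per the file headers, which were whole numbers in these files. They also deposited FPKM values per transcript, per the file headers, and comparison with the counts showed scaling by transcript length and each library's own total. Per the submitters' processing notes, the build was mm10 and the tools included Bowtie2, featureCounts, Trim Galore and FastQC, with no versions or roles; which of them made the values, and any strand setting, are not given in the sources used here. The tables held 0 columns without a sample. Without a strand setting, reads of overlapping genes may be shared.

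Transcripts were summed per gene identifier. Each comparison was fitted across all genes on the estimated counts with edgeR 4.0.16 in R 4.3.3 (TMM scaling, filterByExpr, quasi-likelihood test), with Benjamini-Hochberg adjusted p over all genes tested and a call at an adjusted p under 0.05. The fits were tested on simulated data. Wild-type groups of different tables were fitted over genes in both. Tables and figures were made with Python 3.11.15, pandas 2.3.3, numpy 2.4.6 and matplotlib 3.10.9. Levels are mean FPKM with the SD over libraries, and apart means that the ranges of 2 groups do not overlap.

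The members and lists were chosen with earlier results of these data known, and the lists are genes known from the literature on MYC. Named were all members, up to 4 called genes with the smallest p in each of 9 lists, of which the text gives a selection, the 5 genes most like Myc and Pvt1, and genes of at least 1 FPKM within 2 Mb of Myc. Genes lower in all 3 comparisons, Gm27913, Mthfd1, Eif4g1, Eif2s1, Skp2 and Aurka in TC1 cells, and the line-specific genes were added after their values were seen. The 12 marker lists were read as sums of FPKM. E-boxes were counted in the RefSeq promoter table, and junctions read from the GRCm38 genome and annotation, whose transcript lengths equal those in the files for 7 of 7 Myc and 10 of 10 Pvt1 transcripts. Myc and Pvt1 had no entry in the promoter table.

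No label says that libraries came from separate cultures or animals, so p-values reflect only how libraries of a group vary, which may be technical variation. Libraries of a group differed beyond sampling noise, with a chi-square per degree of freedom of at least 11.02. Libraries with the same number did not deviate together (r from -0.564 to 0.342), so the numbers were not taken to pair them. Alternatives were RLE size factors, scaling by library size alone, fits with all genes kept or with at least 1 CPM in 3 libraries, DESeq2 1.42.0, limma 3.58.1 on log2(FPKM + 1) and log2(FPKM + 0.1), a replicate block, and each library left out. The values of 1 list gene are not reported here.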

Additional observations from a re-analysis of the deposited data

Results flagged for a closer look

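Mxd4 differed between the genotypes in opposite directions in the cell lines, with every sgNAT10 library below every wild-type library in MCA205 cells (log2 change -0.86) and above in TC1 cells (0.68). Mga did the reverse, with 0.34 in MCA205 cells and -0.68 in TC1 cells, while in the libraries labelled TC1 tumours it was at 0.31. In each of these the ranges of the genotypes did not overlap, though the gap for Mga in tumours was narrow. With 1 library left out, the TC1 changes ranged from 0.71 to 0.84 for Mxd4 and from -0.65 to -0.49 for Mga. The differences between the settings were not tested.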

How the results depend on the processing

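Most values kept their direction and their side of the threshold. Pvt1 between wild-type tumours and wild-type TC1 cells, never called, was at -0.06 and changed sign to 0.04 without wild-type TC1 replicate 3 and 0.08 without wild-type tumour replicate 3, in a range of -0.22 to 0.08. In MCA205 cells limma on log2(FPKM + 1) without a filter called 16 partners and regulators in place of 25. With the replicate block, activated targets higher in TC1 cells numbered 6 in place of 10, and in tumours 11 activated targets were lower in place of 44, 3 partners and regulators were called in place of 13 and 0 members in place of 1, beside 4.34% of all genes in place of 17.4%; since the libraries share only a number, these are not read as weaker effects. In tumours 0 members were also called without a filter and by limma without a filter, which gave 22 activated targets lower and 8 partners and regulators. DESeq2 called 20 partners and regulators, and activated targets higher in tumours numbered 2 with DESeq2, 2 with the filter of 1 CPM and 1 with limma on log2(FPKM + 1).

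With each library left out in turn, MCA205 cells gave 5 to 6 members, 29 to 38 activated targets lower, 10 to 19 higher and 21 to 26 partners and regulators. TC1 cells gave 5 to 8, 19 to 56, 5 to 14 and 19 to 35. Tumours gave 0 to 1, 4 to 60, 0 to 0 and 2 to 18. Members called between the wild-type lines were 7 to 9, and between wild-type tumours and TC1 cells 5 to 7. With library sizes alone, the median of all genes between the lines moved from 0.05 to 0.11. The causes were not tested. Mycn outside TC1 cells had at most 13 estimated counts in a library.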
